A study of Brassica napus with 33 samples.

Results

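Small RNA of leaves and of pollinated ovules was compared within the F1 hybrid of Brassica napus (oilseed rape). The 6 libraries described here were the 3 from F1 leaf and the 3 from F1 ovules at 15 days after pollination, chosen by their genotype and tissue labels out of 33 libraries in all. The F1 came from the cross of Express617, the seed parent, with G3D001, the pollen parent. Leaf libraries were made from plants with 6 unfolded leaves (the stage BBCH16), and ovule libraries from ovules of selfed F1 plants (the stage OS15), so that the ovule samples held maternal tissue together with the developing seed. Each replicate pooled material of several plants. The study's other libraries came from the same tissues of both parents, from ovules at 30 days after pollination (OS30), and from ovules of Express617 pollinated with G3D001 (F0). No marker genes are measured in small RNA, so the tissue labels were not checked against markers.

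Plant small RNAs are cut from longer RNA by Dicer-like enzymes. MicroRNAs come from short hairpins and mostly guide the silencing of messenger RNA, whereas the longer small interfering RNAs come largely from transposons and repeats and guide DNA methylation to the loci that produce them. Developing seeds of Brassica species are known for loci that produce very large amounts of small interfering RNA in the ovule and seed coat. Fragments of transfer RNA are also recovered in small RNA libraries, and those cut from the 3′ end carry the CCA that plants add to every mature transfer RNA.

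The values were read counts on sRNA clusters, the stretches of the Express617 assembly on which small RNA reads pile up. There were 91060 clusters with a position, between 19 and 14210 bp long with a median of 689 bp, and 90801 of them had a count in the 6 F1 libraries. A further 10201 entries were listed by an RNA sequence, 18 to 36 bases long, without coordinates, and were analysed separately. Neither kind of entry was marked as microRNA or small interfering RNA. Counts on clusters ranged from 14876521 to 18444761 over the 6 libraries, within the range of 12635700 to 27070031 over all 33. Replicates of a tissue differed by more than sampling noise, at 2.33 to 4.75 times the chi-squared value that sampling noise alone would give over the 6 pairs, and each was kept as a separate sample. Leaf replicate 3 and ovule replicate 2 stood apart in some entries, which are described with the sequence entries below.

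Leaf counts were concentrated on very few clusters and ovule counts were not. The cluster with the most counts held 32.0%, 32.2% and 31.4% of the counts of the leaf libraries, and the leading cluster of the ovule libraries held 2.66%, 3.51% and 3.32%. In leaf, 3, 3 and 4 clusters together held 50% of the counts. In ovule, 162, 159 and 161 clusters were needed. The tissues did not overlap in either measure, and the exact permutation test (two-sided) gave p = 0.10, the smallest p that 3 against 3 libraries allow. The share on the 10 clusters with the most counts was 67.7% ± 1.06 (SD, n = 3) in leaf and 12.9% ± 0.859 (SD, n = 3) in ovule. Counting error was negligible beside this, since the widest 95% Wilson interval of such a share in 1 library spanned 0.0475 percentage points.

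The concentration differed in shape as well as in degree. The 100 leading clusters held 83.5% ± 1.15 of leaf counts and 39.8% ± 0.363 of ovule counts (SD, n = 3), yet the 1000 leading clusters held 90.7% ± 0.846 and 88.0% ± 0.435. Ovule counts were thus spread over many more clusters, while the clusters beyond the leading 1000 received little in either tissue. The median cluster had 8 counts in each leaf library and 4, 5 and 5 counts in the ovule libraries. Clusters with at least 10 counts numbered 40099, 38438 and 41296 in leaf and 25724, 28757 and 28395 in ovule, without overlap between the tissues.

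**Figure D1:**
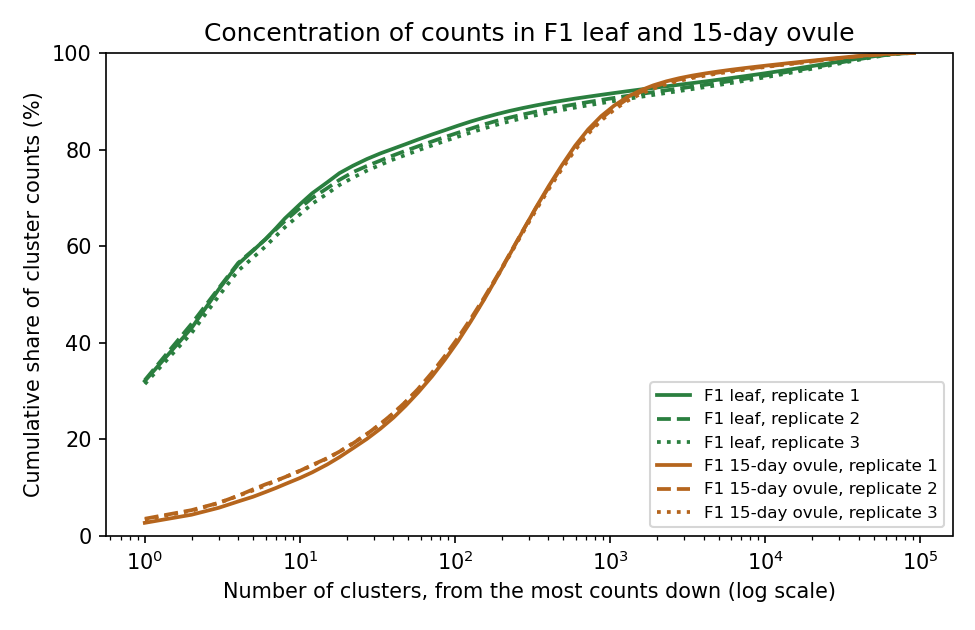
Cumulative share of cluster counts (%, y axis) against the number of clusters taken from the most counts down (x axis, log scale), with a line per F1 library. The leaf lines start at 31.4% to 32.2% with the first cluster, the ovule lines at 2.66% to 3.51%, and the tissues come within a few percentage points of each other at 1000 clusters.

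The leading leaf cluster was Cluster_55810, an 876 bp stretch of chromosome C05 (C05:5570496-5571371, Express617 assembly). It had 5657154, 4792357 and 4770326 counts in the leaf libraries and 143988, 122292 and 175786 in the ovule libraries. Every leaf library was above every ovule library, and the log2 fold change of leaf over ovule was 4.29 ± 0.21 (SE; edgeR quasi-likelihood test, adjusted p = 3.7e-26). The next in leaf were Cluster_45926 on C03 (11.1% of leaf and 0.465% of ovule counts), Cluster_82432 on C09 (7.72% and 0.174%), Cluster_82920 on C09 (5.23% and 0.147%) and Cluster_14834 on A05 (2.74% and 0.110%). A further member of the leading 10, Cluster_45927, began 114 bp after the end of Cluster_45926, so the pair lies side by side on the chromosome. All 10 leading leaf clusters were higher in leaf, with log2 fold changes of 3.40 to 4.51. Further down the ranks this no longer held. Of the 1000 leading leaf clusters 520 were called higher in leaf and 321 higher in ovule. Of the 1000 leading ovule clusters 959 were called higher in ovule and 27 higher in leaf. Over all clusters tested, 11.5% were called higher in leaf and 17.0% higher in ovule. Each list was ranked on the libraries compared, which favours calls toward its own tissue, and the balance of calls depended on the scaling, as described below. The 10 leading leaf clusters held 2.05% ± 0.360 of F1 ovule counts, 69.0% ± 1.51 of Express617 leaf counts and 70.5% ± 1.10 of G3D001 leaf counts (SD, n = 3). The annotation of these positions was not analysed here.

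The leading ovule cluster was Cluster_77054, 848 bp on chromosome C09 (C09:3185112-3185959). It had 457978, 646619 and 583058 counts in the ovule libraries and 24224, 22118 and 29764 in the leaf libraries, a log2 fold change of -5.28 ± 0.22 (SE; edgeR, adjusted p = 1.6e-29). Cluster_75069 on C08 held 1.77% of ovule and 0.221% of leaf counts. Cluster_70555 on C07 (1.51% and 0.0416%), Cluster_40653 on C02 (1.37% and 0.0380%) and Cluster_73572 on C08 (1.21% and 0.0937%) followed. Of the 10 leading ovule clusters 9 were higher in ovule, and the exception was Cluster_55810, the leading leaf cluster, which was the only cluster on both lists. The lists of 100 shared 9 clusters (9% of each) and the lists of 1000 shared 187 (18.7% of each).

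Some leading ovule clusters were close to silent in leaf. Cluster_42329 (803 bp, C03:6394960-6395762) had 90977, 80341 and 83424 counts in the ovule libraries and 3 in each leaf library. Cluster_70434 (1568 bp, C07:37087758-37089325) had 165839, 189933 and 171960 counts in ovule against 19, 9 and 16 in leaf. Cluster_24672 (2985 bp, A08:18431332-18434316) had 135240, 137617 and 131010 against 22, 13 and 19. These were the 3 clusters with the smallest p of those higher in ovule, with log2 fold changes of -15.53 ± 0.35, -14.35 ± 0.32 and -13.67 ± 0.31 (SE; edgeR, adjusted p = 1.8e-40 for each). Among the 1000 leading ovule clusters, 224 had at most 3 counts over the 3 leaf libraries together. Of the 1000 leading leaf clusters, 4 had at most 3 counts over the ovule libraries. The lists are not alike in level. The median cluster had a mean of 4234 counts over the 6 libraries in the ovule list and 689 in the leaf list. No share over all clusters is given beside these numbers, and each list was ranked on the libraries compared.

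The 1000 leading ovule clusters, ranked in the F1 ovule libraries, also held most of the counts of other samples. Their share was 88.0% ± 0.444 in F1 ovules at 15 days, 80.4% ± 1.23 in F1 leaf, 86.8% ± 0.770 in F0 ovules, 86.5% ± 0.594 in Express617 ovules and 85.4% ± 1.34 in G3D001 ovules of the same age, and 56.2% ± 3.48 in F1 ovules at 30 days (SD, n = 3). The leaf share includes Cluster_55810 and other leading leaf clusters. The 1000 leading leaf clusters held 90.7% ± 0.843 of F1 leaf counts, 21.9% ± 1.13 of F1 ovule counts at 15 days and 27.7% ± 2.18 at 30 days.

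Across all clusters, 10404 were higher in leaf and 15444 were higher in ovule (edgeR, adjusted p under 0.05), which is 11.5% and 17.0% of the 90801 tested and 28.5% in all. On TMM-scaled counts the leaf libraries lay wholly above the ovule libraries in 18131 clusters (20.0%) and wholly below in 18752 (20.7%). With a change of 1 or more on the log2 scale required as well, 9654 and 14774 clusters remained. DESeq2 called 6234 clusters higher in leaf and 13376 higher in ovule, of which 6226 and 13338 were also called by edgeR in that direction. It gave no adjusted p for 22949 clusters.

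The balance between the directions depended on how the libraries were scaled. TMM scaling, which sets the bulk of clusters to no change, raised the effective size of the leaf libraries to 1.27, 1.42 and 1.52 times their totals and lowered that of the ovule libraries to 0.693, 0.712 and 0.738 times theirs, and left a median log2 fold change of 0.12. Scaling by total counts moved the median to 1.05, with 33126 clusters higher in leaf and 9743 higher in ovule. Leaving the leading clusters out of the totals, which are the 20 clusters that ranked among the 10 highest in any of the 6 libraries, moved it to 2.45, with 66022 and 5885. The share of calls that were higher in leaf was thus 40.3% under TMM, 51.5% with upper-quartile factors, 77.3% with total counts and 91.8% with total counts without the leading clusters. Under each of the 7 scalings tried, 9871 clusters were called higher in leaf and 5885 higher in ovule. Counts give relative amounts, so a change in total small RNA between the tissues was not measured.

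**Figure D2:**
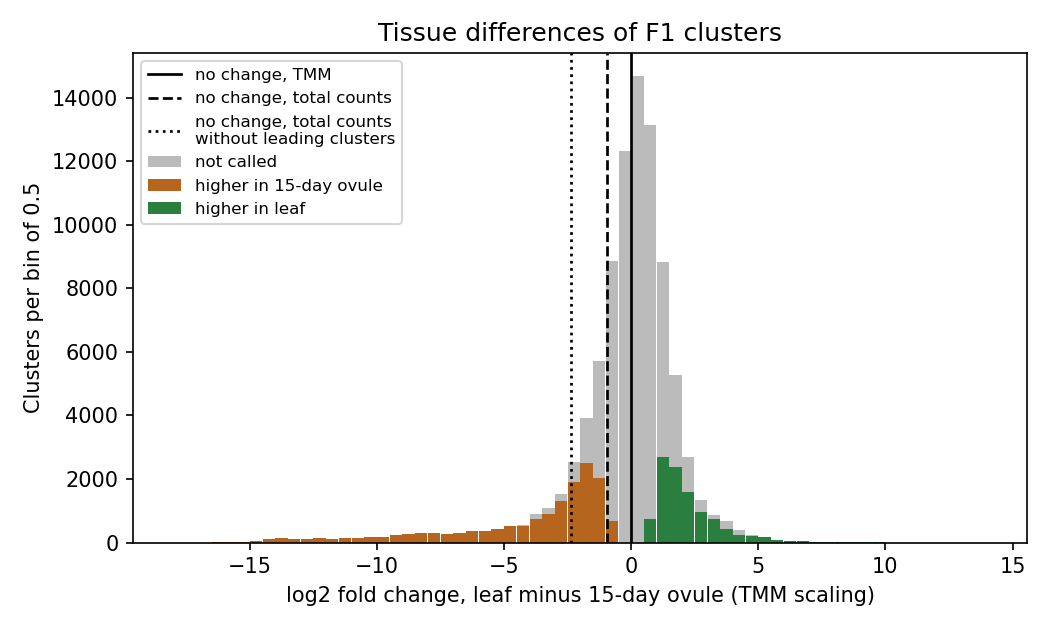
Number of clusters (y axis, bins of 0.5) by log2 fold change of leaf minus 15-day ovule under TMM scaling (x axis), coloured by call. The vertical lines mark no change under TMM, under total counts and under total counts without the leading clusters, and the ovule side has a tail below -10 that lies left of every line.

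Clusters with large fold changes differed in level between the directions. The 5 largest among those higher in ovule, Cluster_72372, Cluster_7848, Cluster_53763, Cluster_60353 and Cluster_41743, had 0 counts in every leaf library. Cluster_72372 (543 bp, C08:17337262-17337804) had 15122, 15692 and 16580 counts in ovule, at least 27682-fold higher than in leaf under TMM scaling and 14168-fold under total counts, when 3 counts over the leaf group are taken as the floor. Cluster_7848 (667 bp, A03:6635181-6635847) had 11846, 11895 and 11590, at least 20636-fold and 10562-fold higher under these scalings. The other 3 had between 7075 and 8772 counts in each ovule library. The replicates of these clusters lay close together, and each 15-day ovule library of the parents had at least 7224 counts at Cluster_7848 and at least 7702 at Cluster_72372, while no leaf library of the parents had more than 2.

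The 5 largest among those higher in leaf had 0 counts in every ovule library but much lower counts in leaf. Cluster_8655 (373 bp, A03:15175583-15175955) had 523, 519 and 389 counts in leaf, at least 272-fold higher than in ovule under TMM scaling and 532-fold under total counts, with the floor of 3 counts over the ovule group. In the parents it had 889, 1038 and 746 counts in Express617 leaf and 0 in each G3D001 leaf library. Cluster_88858 had 135, 161 and 187 counts and Cluster_75049 had 67, 160 and 176. Cluster_85273 had 1, 65 and 564 counts and Cluster_85293 had 1, 43 and 408, so that both rested largely on leaf replicate 3, without which their log2 fold changes fell from 10.33 to 7.65 and from 9.85 to 7.06. The clusters with the smallest p in this direction were steadier. Cluster_6839 (2187 bp, A02:26728270-26730456) had 5975, 5243 and 5134 counts in leaf and 8, 7 and 8 in ovule, a log2 fold change of 8.65 ± 0.30 (SE; edgeR, adjusted p = 1.2e-32). Cluster_60936 and Cluster_62893, both on C06, had log2 fold changes of 6.63 ± 0.27 and 6.49 ± 0.29.

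**Figure D3:**
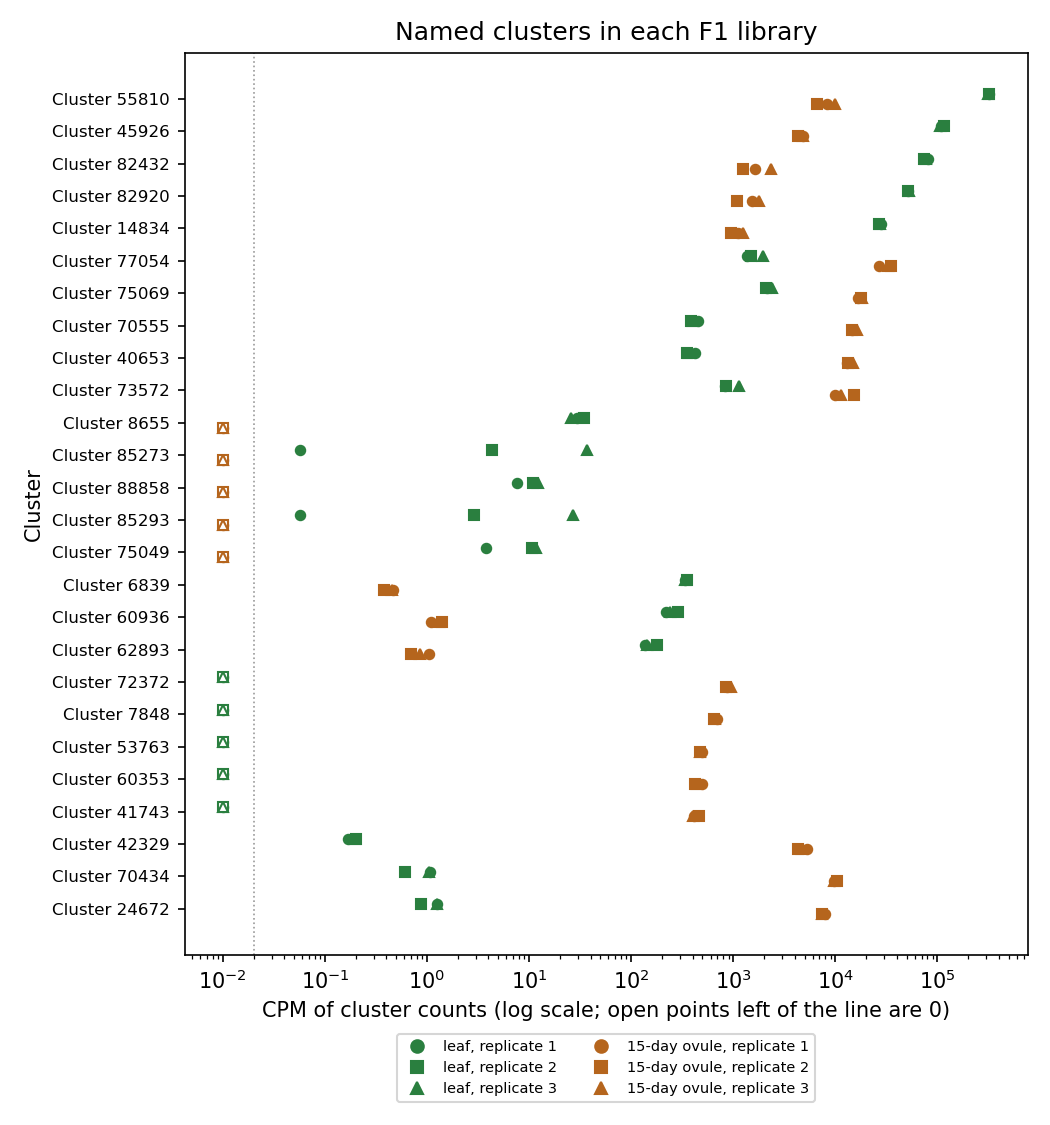
CPM, the counts scaled to the total of cluster counts of the library (x axis, log scale), of the named clusters in each of the 3 leaf and 3 ovule libraries of the F1, with open points for 0 counts. The leaf and ovule points do not overlap in any of these clusters, and the leaf points of Cluster_85273 and Cluster_85293 spread from 1 count in replicate 1 to 564 and 408 counts in replicate 3.

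By raw counts, clusters with counts in 1 tissue and almost none in the other were more frequent in ovule than in leaf. A cluster was called specific with at least 20 counts in each library of a tissue and at most 3 counts over all libraries of the other. By this rule 219 clusters were leaf-specific and 1982 were ovule-specific. The leaf-specific clusters held 0.101% ± 0.0142 of leaf counts and the ovule-specific ones 10.7% ± 0.210 of ovule counts (SD, n = 3). Of the ovule-specific clusters 982 had no count in leaf, and of the leaf-specific clusters 34 had no count in ovule. The median cluster had a mean of 54.3 counts in the leaf-specific list and 96.3 in the ovule-specific list. On TMM-scaled counts 139 clusters were leaf-specific and 2273 ovule-specific. The number of leaf-specific clusters rose to 350, 421 and 391 without ovule replicate 1, 2 and 3, where the limit of 3 counts was summed over fewer libraries. Outside the 20 leading clusters the leaf libraries held 4674691 to 5396306 counts and the ovule libraries 14836212 to 15661331. The rule was not run with counts scaled to these totals, so the balance under that scaling is not known.

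Many of these clusters met the same rule in the parents. Of the ovule-specific clusters 1319 (66.5%) did so in Express617, 1278 (64.5%) in G3D001 and 880 (44.4%) in both, against 2.33%, 2.19% and 1.27% of all 91060 clusters. Of the leaf-specific clusters 90 (41.1%) did so in Express617, 95 (43.4%) in G3D001 and 58 (26.5%) in both, against 0.169%, 0.187% and 0.0791% of all clusters. In F0 ovules of the same age 1522 ovule-specific clusters (76.8%) and 0 leaf-specific clusters had at least 20 counts in each library. In F1 ovules at 30 days 1209 ovule-specific clusters (61.0%) and 51 leaf-specific clusters (23.3%) did so. For the F0 and 30-day libraries no share over all clusters is given, so these counts have no general rate beside them.

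Clusters higher in leaf were shorter than those higher in ovule. The median length was 544 bp for the clusters higher in leaf, 722 bp for those higher in ovule, 707 bp for those not called and 688 bp for all tested. Of the clusters up to 100 bp, 18.5% were higher in leaf, against 6.91% of those over 3000 bp, and the share fell through each class between. The share higher in ovule was 24.7% up to 100 bp, 16.6% over 100 to 300 bp and 16.1% over 300 to 1000 bp. It was 18.9% over 1000 to 3000 bp and 11.8% over 3000 bp. Median counts per cluster also fell from class to class, from 11.5 up to 100 bp to 6 over 3000 bp. Their part in these shares was not tested. With total counts the medians were 588 and 668 bp, so the difference was smaller and kept its direction. The tissue-specific clusters had lower medians than all tested, at 433 bp in leaf and 514 bp in ovule. Their rule allowed at most 3 counts in the other tissue, and whether this limit favours short clusters was not tested. The longest tissue-specific cluster was Cluster_64269 with 3798 bp (345, 626 and 309 counts in ovule and 3 over the leaf libraries). The shortest was Cluster_52520 with 24 bp (52, 69 and 59 counts in ovule and 0 in leaf). Both were ovule-specific. Among the leaf-specific clusters Cluster_17385 had 2212 bp and Cluster_9873 had 25 bp.

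Weighted by counts, the tissues also differed in length. Of the counts, 50% lay on clusters up to 876 bp long in each leaf library, which is the length of Cluster_55810, and up to 1072.7 bp ± 20.5 (SD, n = 3) in the ovule libraries. Without the 20 leading clusters these lengths were 711, 708 and 709 bp in leaf and 1140, 1144 and 1119 bp in ovule. Clusters of over 100 to 300 bp then held 19.4% ± 0.350 of leaf and 5.62% ± 0.265 of ovule counts, and clusters of over 1000 to 3000 bp held 27.8% ± 0.336 and 49.6% ± 0.541 (SD, n = 3). The longest class went the other way, since clusters of over 3000 bp held 11.8% ± 0.497 of leaf and 7.10% ± 0.0388 of ovule counts (SD, n = 3). With all clusters included, the class of over 100 to 300 bp was higher in ovule, at 7.83% against 6.53% in leaf. The class of over 3000 bp stayed higher in leaf, at 8.74% against 6.88% in ovule. The tissues did not overlap in any of these shares (exact permutation test, p = 0.10 for each, adjusted p = 0.10 over 5 classes).

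**Figure D4:**
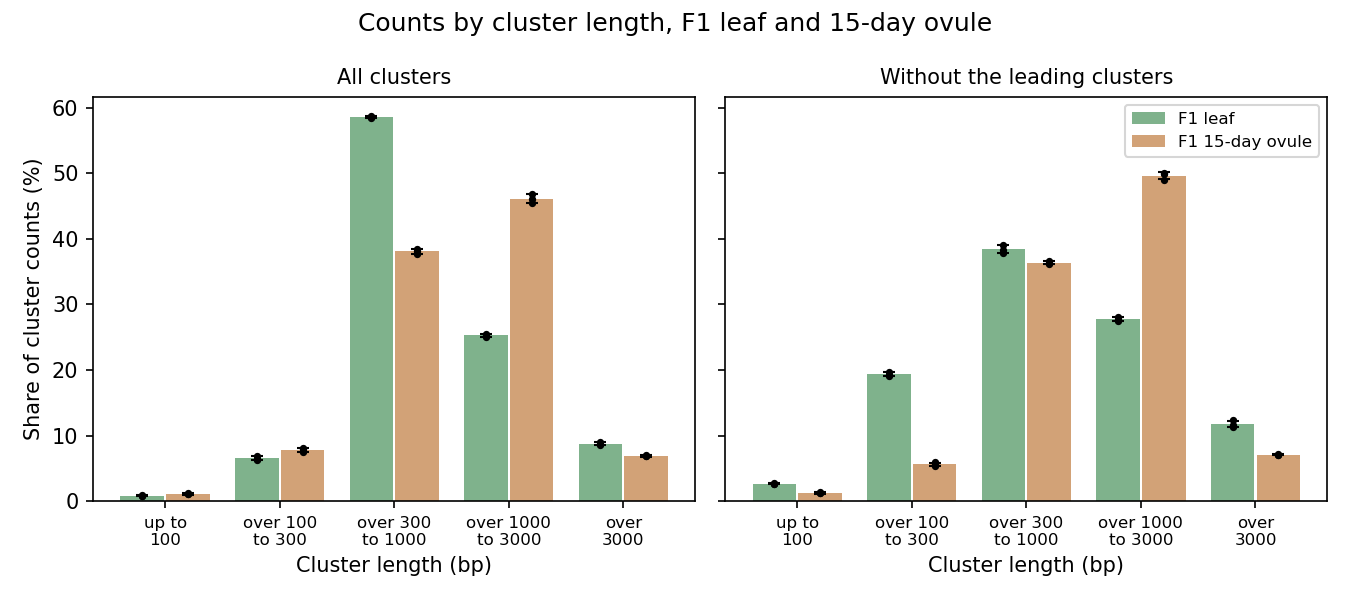
Share of cluster counts (%, y axis) by cluster length (x axis) for F1 leaf and 15-day ovule, with all clusters and without the 20 leading clusters. Bars are means, error bars the SD and points the 3 libraries, and without the leading clusters ovule counts are highest on clusters of over 1000 to 3000 bp and leaf counts on clusters of over 300 to 1000 bp.

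The subgenomes of this allotetraploid took different shares in the tissues. The A subgenome held 15.7% ± 0.286 of leaf and 41.3% ± 0.550 of ovule counts, and the C subgenome 81.2% ± 0.411 and 55.05% ± 0.485 (SD, n = 3). Scaffolds held 3.09% ± 0.129 and 3.70% ± 0.0900. By number, 35.2% of all clusters lay on A, 56.7% on C and 8.14% on scaffolds, so the ovule share on C was near its share of clusters. Without the 20 leading clusters the A subgenome held 30.1% ± 0.497 and 47.3% ± 0.188, and the C subgenome 60.1% ± 0.641 and 48.4% ± 0.0549, so the gap narrowed and kept its direction. The share on scaffolds changed direction, to 9.81% ± 0.145 in leaf and 4.34% ± 0.139 in ovule. The libraries of the tissues did not overlap (exact permutation test, p = 0.10 for each, adjusted p = 0.10 over 3 shares). By number of clusters, 11.3% of those on A and 11.8% of those on C were higher in leaf, and 19.8% and 15.7% were higher in ovule. Clusters on A06 and A03 were most often higher in ovule (22.4% and 22.3%), and those on C09 least often among the chromosomes (14.4%).

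The entries listed by RNA sequence gave the size of their own RNAs, which the clusters do not. In F1 ovule, sequences of 24 bases held 37.6%, 30.9% and 33.3% of the counts on such entries, and in leaf 6.89%, 5.89% and 6.08%. Sequences of 25 to 36 bases held 40.6%, 43.3% and 49.4% in leaf and 18.3%, 14.5% and 18.5% in ovule. The tissues did not overlap in either class (exact permutation test, p = 0.10, adjusted p = 0.20 over 8 length classes). Sequences of 21 bases held 13.3% and 14.1% in ovule replicates 1 and 3 and 30.4% in replicate 2, so they overlapped with leaf (13.1% to 17.8%). Entries that rested on 1 library held 47.3% of these counts in leaf replicate 3 and 26.2% in ovule replicate 2, and whether they come from the plant or from another organism was not tested, so the length shares of these libraries may not be those of plant small RNA alone. Sequences that end in CCA held 25.8% to 45.5% in leaf and 22.1% to 40.7% in ovule and overlapped as well. The sequence entries held 2.88% to 5.63% of all counts of a library, so they describe a small part of the small RNA. In the ovule libraries, 38.4%, 29.4% and 33.7% of the counts on them lay on 1740 entries, described below, that had counts in G3D001 ovules and almost none in those of Express617. Of these 1142 had 24 bases, and their part in the share of 24 bases was not tested.

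**Figure D5:**
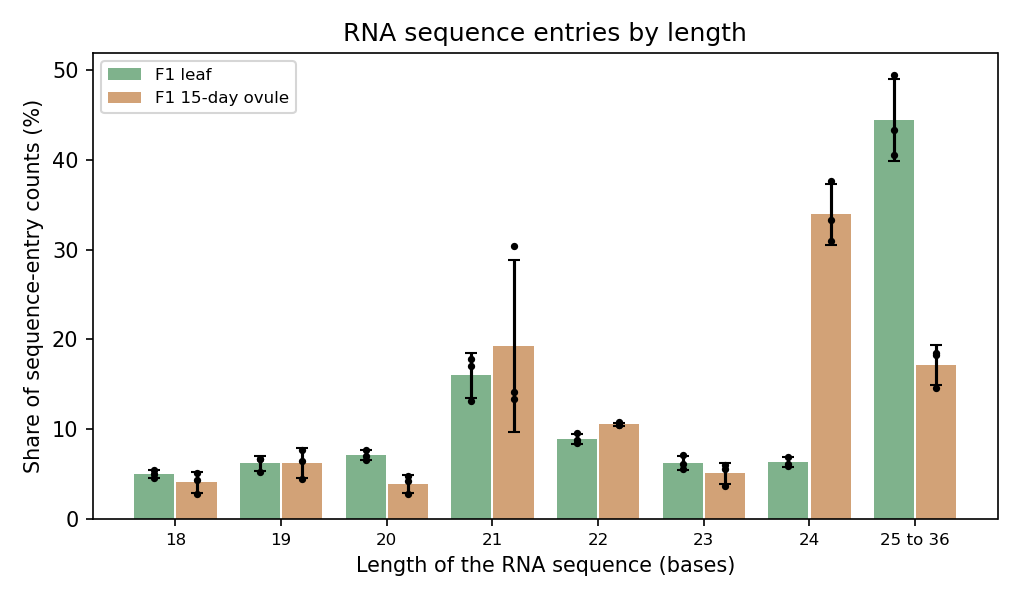
Share of the counts on RNA sequence entries (%, y axis) by the length of the sequence (x axis) for F1 leaf and 15-day ovule. Bars are means, error bars the SD and points the 3 libraries, with 24 bases at 30.9% to 37.6% in ovule and 5.89% to 6.89% in leaf, and ovule replicate 2 alone at 30.4% for 21 bases.

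Of 9618 entries tested, 1978 (20.6%) were higher in leaf and 4051 (42.1%) higher in ovule, together 62.7%. Of the entries of 24 bases 66.4% were higher in ovule and 9.81% higher in leaf. Of those of 25 to 36 bases 21.9% and 37.4% were. The entries with the most counts among those called in each direction, and not overlapping between the tissues, are shown because they had the highest mean counts. In the first, the capital marks the base by which it is longer than the second. In the ovule sequences of 18 and 25 bases, capitals mark the terminal CCA.
leaf, 31 bases: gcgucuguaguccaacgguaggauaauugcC
leaf, 30 bases: gcgucuguaguccaacgguaggauaauugc
ovule, 18 bases: uucacgucggguucaCCA
ovule, 25 bases: uguucguuucacgucggguucaCCA
ovule, 32 bases: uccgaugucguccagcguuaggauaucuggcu

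The leaf pair shares its first 30 bases. The longer form had 16603, 15038 and 9194 counts in leaf and 791, 1051 and 1148 in ovule, and the shorter 5833, 6507 and 5041 against 130, 209 and 201. Their log2 fold changes were 2.98 ± 0.34 and 4.22 ± 0.30 (SE; edgeR, adjusted p = 0.00096 and 0.000895). In F1 ovules at 30 days the longer form had 13649, 14952 and 25306 counts. The ovule sequence of 25 bases ends with the 18 bases of the shorter one, so the entries overlap in sequence. The shorter had 14200, 10597 and 15696 counts in ovule and 6212, 7086 and 5581 in leaf. The longer had 16054, 11829 and 11846 against 3860, 2591 and 2874. Of the 5 shown, the sequence of 32 bases had the largest difference, with 7942, 10685 and 9781 counts in ovule and 83, 65 and 87 in leaf, a log2 fold change of -7.72 ± 0.28 (SE; edgeR, adjusted p = 0.000895). The remaining entry that the rule named, of 30 bases and higher in leaf, had 22, 3269 and 14130 counts in leaf and 0 in ovule, and its sequence is not shown because its leaf libraries differed so widely that it may not come from the plant, which was not tested.

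By the rule used for clusters, 454 sequence entries were leaf-specific and 2128 were ovule-specific. Of the ovule-specific entries 1326 (62.3%) had 24 bases, and of the leaf-specific entries 36 (7.93%) had 24 bases and 252 had 25 to 36. Of all 10201 sequence entries, 2784 had 24 bases and 2785 had 25 to 36. The ovule-specific entries were unevenly shared with the parents. In 1740 (81.8%) every G3D001 ovule library had at least 20 counts and the Express617 ovule libraries had at most 3 together, and in 17 (0.799%) the reverse held. Over all 10201 sequence entries these shares were 21.9% and 0.382%. Of the leaf-specific entries, by the same limits in the leaf libraries of the parents, 1 (0.220%) was found in G3D001 alone and 0 in Express617 alone, and 236 had at least 20 counts in every leaf library of both. The reads had been aligned to the assembly of Express617, and whether that bears on which sequences lack a position was not tested. The 1740 entries held 38.4%, 29.4% and 33.7% of the counts on sequence entries in the F1 ovule libraries, and 1142 of them had 24 bases. In 1738 of the 1740 the F0 ovule libraries had at most 3 counts together, and in 1021 every F1 ovule library at 30 days had at least 20. No share over all sequence entries is given for these last counts. The 3 with the most F1 ovule counts among entries of 24 bases with 0 counts in leaf, chosen after their values were seen, are shown as examples with no part marked.
24 bases, A: cuuccaucucgcagcaugaaccug
24 bases, B: aagaacggucuggaauaauguuca
24 bases, C: uuagauuuucugaaggcugugugc

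Sequence A had 5872, 5739 and 6993 counts in the F1 ovule libraries and 11423, 7973 and 9244 in those of G3D001. It had at most 2 counts in any Express617 or F0 ovule library at 15 or 30 days, and 0 in the leaf libraries of the F1 and both parents. Sequence B had 3837, 4185 and 3698 counts in F1 ovule and sequence C 4592, 3482 and 3404. With 3 counts over the leaf group as the floor, they were at least 10866-fold, 6845-fold and 6704-fold higher in F1 ovule than in F1 leaf under TMM scaling, and at least 5561-fold, 3504-fold and 3431-fold under total counts.

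A number of entries rested on 1 library. Among entries with at least 100 counts in 1 library of a tissue and a spread of about 20-fold or more between its libraries, 362 were found in leaf, of which 311 were highest in leaf replicate 3. They held 4080, 111424 and 428192 counts in leaf replicates 1, 2 and 3, which was 47.3% of the counts on sequence entries in replicate 3. In ovule 485 such entries held 262, 228074 and 674 counts, 484 of them were highest in replicate 2, and 343 had 21 bases. Of the leaf entries 100 were called different between the tissues, and of the ovule entries 1 was. Among clusters the same rule found 11 in leaf and 54 in ovule, of which 9 and 51 were called different between the tissues, so a call does not require that every replicate carried the cluster. The part of these entries in the shares by length above was not tested. Without leaf replicate 3, 7950 clusters and 1634 sequence entries were higher in leaf and 14577 and 3734 higher in ovule. Without ovule replicate 2, 9065 clusters and 1952 entries were higher in leaf and 14287 and 4282 higher in ovule.

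The tissue difference of the F1 was set against the mean of its parents in one fit of 18 libraries. The leaf minus ovule difference was higher in the F1 than in the parents at 70 clusters (0.0769% of 91023) and lower at 457 (0.502%), together 0.579%. This balance turned with the scaling, since total counts gave 5833 clusters higher and 256 lower. Cluster_78696 (262 bp, C09:15964739-15965000) had 544, 356 and 748 counts in F1 leaf and 2, 3 and 2 in F1 ovule, while no leaf or 15-day ovule library of either parent had more than 7. In F1 ovules at 30 days it had 2222, 1768 and 3201 counts. Cluster_11217 (1619 bp, A04:1410230-1411848) had 7, 6 and 6 counts in F1 leaf and 7316, 7655 and 7573 in F1 ovule. Its counts in 15-day ovules were 7124, 6205 and 7640 in Express617 and 21, 5 and 18 in G3D001, so the F1 level was near that of Express617 and far from that of G3D001.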

How the data were processed

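The deposited values were raw read counts per sRNA cluster or RNA sequence and library. Per the study's methods, the authors discarded reads under 18 bp with seqtk and used ShortStack to align and count the others on the assembly of Express617, without normalization. No sample column was left unmapped. Clusters and sequence entries with a count in the 6 libraries were tested with edgeR's quasi-likelihood test (version 4.0.16, R 4.3.3) with tissue as the only term, TMM factors computed on the clusters, and Benjamini-Hochberg adjustment over all features tested. Signed fold changes are log2 of leaf over ovule, and the SE was derived from the F statistic. The parents entered only the fit of 18 libraries. DESeq2 1.42.0 was an alternative. Exact permutation tests (scipy 1.17.1) compared shares. P-values measure the spread between pooled replicates. Counting intervals and the floor of 3 counts cover counting error only.

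Clusters named in the text were, per direction, the 5 with the highest share, the 5 with the largest fold change among called clusters without overlap and with a mean of at least 100 counts, the 3 with the smallest p, the longest and shortest tissue-specific cluster, and the cluster with the smallest interaction p. For sequence entries they were the 3 with the highest mean count per direction. The members and lists were chosen with earlier results of these data known. MicroRNA families were not matched.

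The fit was tested on simulated counts in which a few clusters took most of the leaf library. With the true scaling factors it returned unchanged clusters near no change. TMM factors over all clusters, as in the main test, left unchanged clusters below it, toward ovule, by more than the limit first set for this check, and factors from clusters that reached 10 counts in 3 or more libraries did not. The latter factors were therefore run on the real counts as an alternative chosen after seeing the data. There they gave fewer clusters higher in leaf (9892 against 10404) and more higher in ovule (15742 against 15444). This move was opposite to that in the simulation. Which real clusters are unchanged is not known, so whether the main scaling left an offset in the real counts could not be measured.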

Additional observations from a re-analysis of the deposited data

Results flagged for a closer look

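The test of the F1 tissue difference against that of the parents picked out both directions of change, with 70 clusters at which the leaf minus ovule difference was higher in the F1 and 457 at which it was lower. With total counts these numbers were 5833 and 256, so the balance between the directions depended on the scaling. At Cluster_78696 the leaf minus ovule difference of the F1 exceeded the mean of the parents by 7.81 ± 1.20 on the log2 scale (SE; edgeR, adjusted p = 0.00016). The leaf and 15-day ovule libraries of the parents had 0 to 7 counts there, so the size of this difference is uncertain. At Cluster_11217 the difference from the mean of the parents was -5.06 ± 0.47 (SE; edgeR, adjusted p = 2.2e-08), where the parents themselves differed, with log2 fold changes of -10.66 in Express617 and -1.13 in G3D001 against -10.96 in the F1. The number of clusters in the higher direction fell to 37 without ovule replicate 1, and to 46, 44 and 45 without leaf replicate 2, leaf replicate 3 and ovule replicate 3.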

How the results depend on the processing

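Scaling had the strongest effect on the counts of calls. Clusters higher in leaf numbered 10404, against 33126 with total counts and 66022 with total counts without the leading clusters. Clusters higher in ovule numbered 15444, against 9743 and 5885 with these scalings. RLE factors, another scaling, gave 9881 and 15763 in edgeR. DESeq2, a different test, called 6234 clusters higher in leaf and gave no adjusted p for 22949 clusters. TMM factors from clusters that reached 10 counts in 3 or more libraries, chosen after seeing the data, gave 9892 and 15742. Leaving out each library gave 7234 to 9065 and 13779 to 14577. In the labels, the leaf and ovule libraries of the same number share a code. Their deviations correlated only weakly, at 0.0450, 0.00503 and 0.0559 over 17806 clusters. Libraries of different numbers gave -0.0583 to 0.0127. The main test did not pair the libraries. A replicate block gave 9778 and 14924 clusters, 2359 and 5078 sequence entries, and 91 and 531 clusters that differed from the parents. Leaf-specific clusters numbered 409 and 82 with a minimum of 10 and 50 counts, 34 with 0 counts allowed in ovule, 139 on TMM-scaled counts and 232 to 421 with a library left out. Ovule-specific clusters numbered 1260 with a minimum of 50 counts, 982 with 0 counts in leaf, 2273 on TMM-scaled counts and 2052 to 2394 with a library left out. The share of counts was 31.9% in leaf and 3.16% in ovule for 1 cluster and 83.5% and 39.8% for 100, and the leaf share on 10 was 64.9% with sequence entries included. Leaving out each library kept the share on 10 within 67.2% to 68.3% and 12.7% to 13.4%.

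Without the leading clusters, 50% of counts lay on 102.7 clusters in leaf and 200 in ovule, the count-weighted median length was 709 and 1134 bp, and the shares were 30.1% and 47.3% on A, 60.1% and 48.4% on C and 9.81% and 4.34% on scaffolds. Median lengths of clusters higher in leaf and ovule were 588 and 668 bp with total counts, 566 and 704 bp with the filter on low counts, and 539 to 565 bp and 708 to 716 bp with a library left out. The comparison with the parents gave 5833 and 256 clusters with total counts, and 37 to 61 and 305 to 379 with an F1 library left out. Sequence entries gave 1634 to 1952 and 3664 to 4282. The 33 named clusters kept their direction and their call under total counts, the replicate block and each left-out F1 library, and so did the difference from the parents at Cluster_78696 and Cluster_11217. Low counts limit what can be said of many clusters, since the median count per library was 4 to 8.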
